A study of Mus musculus with 6 samples.

Results

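Glycolysis, glucose transport and hypoxia genes were examined in bone marrow-derived macrophages that lack vimentin. The list named 36 genes, from the glucose transporters through the enzymes of glycolysis to hypoxia-inducible factor 1 alpha (Hif1a) and its targets. A gene was represented by the array probe set that the platform annotation assigns to it alone and that had the highest mean over the 6 arrays. This gave 33 of the 36 genes, out of 18193 genes in the whole series. Of these, 31 lay above the filter on dim genes and were tested, among 13445 tested genes in all, while Egln3 and Adm were dim and were not tested. Gapdh was named alone only by control probe sets, which did not enter the fit. No probe set named Gpi1 or Eno1 alone, so their expression is not analysed here.

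The study compared 3 samples of macrophages from vimentin-deficient mice with 3 from wild-type littermates, 1 Affymetrix expression array per sample. All animals were 17 weeks old and on a C57BL/6 background. Femoral marrow was grown in high-glucose medium with macrophage colony-stimulating factor from a cell line supernatant, at normal oxygen, so both genotypes shared these conditions. The labels call the samples biological replicates without saying whether each is a separate animal or culture, so p-values measure the spread between these samples. They do not say how the vimentin allele was made or whether the lack of vimentin is limited to any cell type.

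Glycolysis splits glucose into pyruvate in the cytosol and yields ATP without oxygen. Macrophages raise it when they are activated, exporting the lactate that follows. Hypoxia-inducible factor 1 is the transcription factor that turns on most of these genes: prolyl hydroxylases mark its alpha subunit for degradation while oxygen is present, and at low oxygen it binds the core letters ACGTG or GCGTG in its target genes. Inflammatory signals can also raise it at normal oxygen.

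Values are log2 probe set values as deposited, so a difference of 1 is a doubling. Array medians lay between 7.23 and 7.25. The targeted gene, Vim, was 59.4-fold lower (limma adjusted p = 0.00414): its vimentin-deficient values were 8.20, 6.96 and 7.13 in replicates 1, 2 and 3, and no wild-type value was under 13.24. Vimentin-deficient replicate 3 stood apart: its correlations with the remaining arrays were 0.975 to 0.979, and those among the remaining 5 were 0.992 to 0.998. All 10 macrophage markers were above the filter, with Lyz2 and Ctss brightest at means of 14.06 and 13.80, and their list mean ran from 12.24 to 12.43 on vimentin-deficient and from 12.21 to 12.33 on wild-type arrays. Lists of 7 other marrow cell types had no list mean above 7.48 on any array, but part of their genes lay above the filter: 5 of 8 measured for neutrophils, 3 of 6 for B cells, 4 of 7 for T and NK cells, 4 of 6 for erythroid cells, 3 of 6 for dendritic cells, 1 of 5 for mast cells and basophils and 6 of 8 for stromal cells. Their brightest genes were Csf3r at 8.69 and Elane at 7.97 for neutrophils, Vpreb3 at 7.89 and Ebf1 at 7.69 for B cells, Cd3e at 9.15 and Cd4 at 8.14 for T and NK cells, and Epor at 7.998 and Hba-a1 at 7.65 for erythroid cells. For dendritic cells they were Xcr1 at 7.66 and Flt3 at 7.31, for mast cells and basophils Kit at 8.45 and Cpa3 at 6.70, and for stromal cells Pdgfrb at 8.67 and Col1a1 at 8.01. With 6 arrays 0 markers passed the test, and without vimentin-deficient replicate 3 the macrophage marker Cd14 rose and the erythroid marker Epor fell.

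None of the 31 tested genes passed the threshold with all 6 arrays (limma adjusted p from 0.279 to 0.982, threshold 0.05). Of all tested genes, 0.0223% passed as lower and 0% as higher. Before adjustment, 6 of the 31 (19.4%, beside 7.97% of all tested genes) had a limma p under 0.05, namely Slc2a6, Pkm, Ankrd37, Pfkp, Ndrg1 and P4ha2. The median log2 fold change over the 31 was -0.07, with 14 genes higher and 17 lower, and over all tested genes it was -0.02. The median size of the difference, regardless of direction, was 0.16 over the 31 and 0.07 over all tested genes. The 31 were also brighter, with a median level of 9.60 against 8.40.

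Groups did not overlap for 7 of the 31 genes, or 22.6%, beside 15.5% of all tested genes. Higher on every vimentin-deficient array than on any wild-type array were the transporter gene Slc2a6, the hexokinase gene Hk1, the phosphofructokinase gene Pfkp and the pyruvate kinase gene Pkm. The hypoxia-responsive genes Bnip3, Ankrd37 and Ndrg1 were lower on every vimentin-deficient array. The 4 higher genes made up 12.9% of the 31 (background 5.32%) and the 3 lower ones 9.68% (background 10.1%).

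Leaving out vimentin-deficient replicate 3 changed these calls. In that fit of 2 arrays against 3, Slc2a6 and Pfkp rose and 0 of the 31 genes fell, while 1.31% of all tested genes rose and 1.03% fell, 2.34% in all. Among the 31 genes the share that rose was 6.45%. The median over the 31 moved from -0.07 to 0.08, with 20 genes higher, where the median over all tested genes was -0.01. The 8 genes that changed sign between the fits were Aldoc, Tpi1, Pgk1, Pgam1, Ldha, Slc16a3, Vegfa and Mif.

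**Figure D1:**
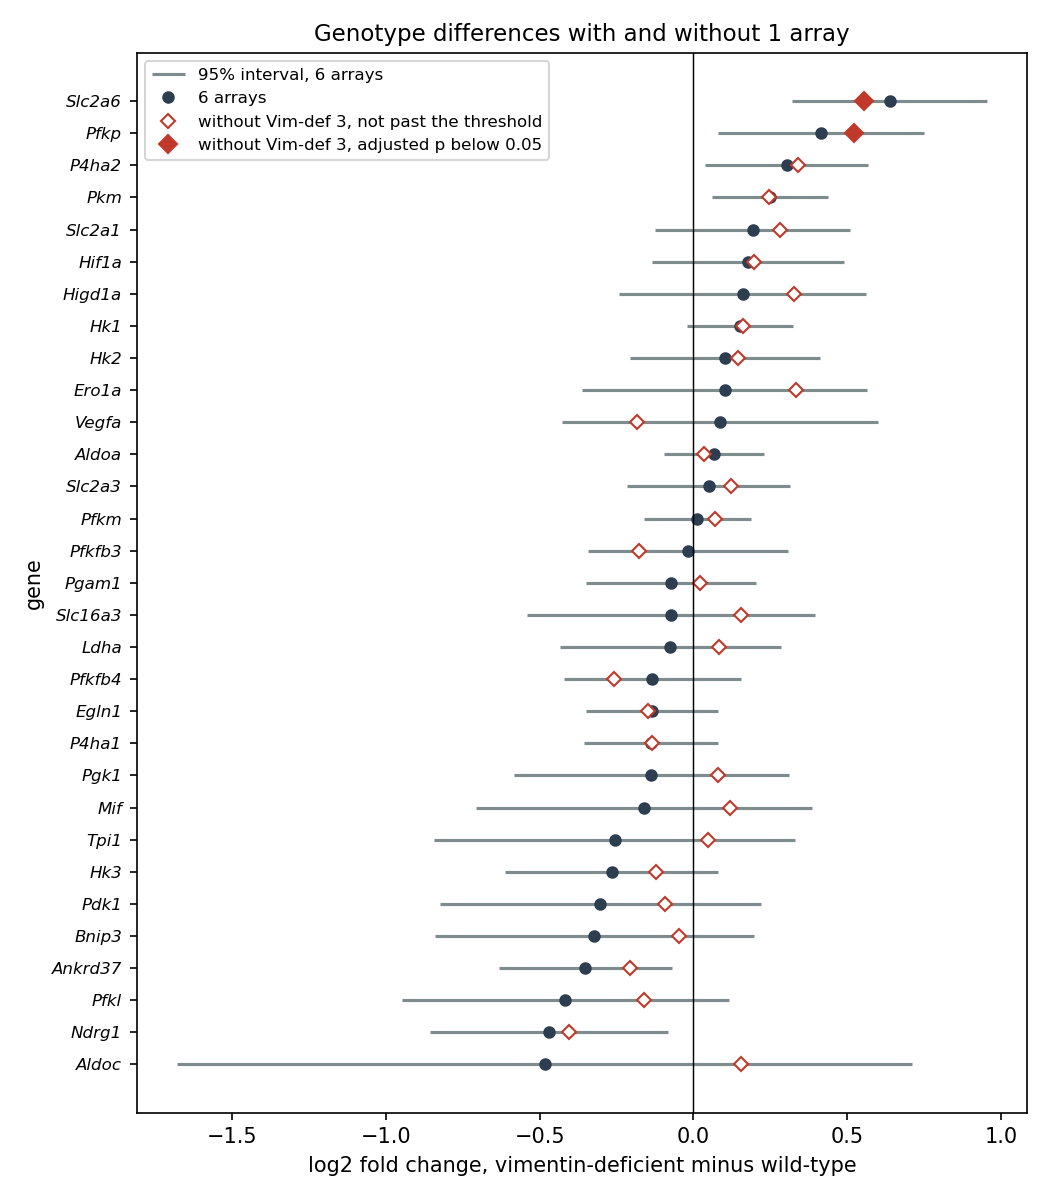
Log2 fold change, vimentin-deficient minus wild-type (horizontal axis), of the 31 tested genes (vertical axis, ordered by the value with 6 arrays). Dark points and grey lines give the estimate and its 95% limma interval with 6 arrays, and diamonds the estimate without vimentin-deficient replicate 3; the 2 filled diamonds, Slc2a6 and Pfkp, passed an adjusted p of 0.05 in that fit.

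The upstream windows of 5 genes are shown: Slc2a6 and Pfkp, because they rose without that array, and Bnip3, Pgk1 and Mif as 3 examples, chosen after their values were seen, of the 16 genes that were lowest of all 6 on it. Each is the 250 bases before the annotated start, from RefSeq on GRCm38.p6, written 5′ to 3′ on the strand of the gene. Capitals mark ACGTG or GCGTG, the core letters of the hypoxia response element, on either strand.
Slc2a6, chr2:27027999-27028248, minus strand: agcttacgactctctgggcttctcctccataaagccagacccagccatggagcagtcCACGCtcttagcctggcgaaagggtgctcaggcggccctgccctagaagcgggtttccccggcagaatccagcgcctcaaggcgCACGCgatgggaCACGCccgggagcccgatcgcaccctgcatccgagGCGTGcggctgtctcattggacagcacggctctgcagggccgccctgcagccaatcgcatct
Pfkp, chr13:6648772-6649021, minus strand: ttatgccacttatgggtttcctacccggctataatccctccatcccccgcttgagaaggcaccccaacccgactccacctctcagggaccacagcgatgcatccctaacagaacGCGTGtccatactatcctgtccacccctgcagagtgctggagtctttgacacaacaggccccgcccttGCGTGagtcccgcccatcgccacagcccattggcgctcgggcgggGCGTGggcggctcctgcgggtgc
Bnip3, chr7:138909507-138909756, minus strand: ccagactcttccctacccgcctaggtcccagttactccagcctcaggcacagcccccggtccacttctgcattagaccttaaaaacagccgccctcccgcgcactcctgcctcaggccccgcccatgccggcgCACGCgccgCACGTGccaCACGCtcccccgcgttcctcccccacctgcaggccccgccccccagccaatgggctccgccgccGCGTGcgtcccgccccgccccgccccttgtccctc
Pgk1, chrX:106186850-106187099, plus strand: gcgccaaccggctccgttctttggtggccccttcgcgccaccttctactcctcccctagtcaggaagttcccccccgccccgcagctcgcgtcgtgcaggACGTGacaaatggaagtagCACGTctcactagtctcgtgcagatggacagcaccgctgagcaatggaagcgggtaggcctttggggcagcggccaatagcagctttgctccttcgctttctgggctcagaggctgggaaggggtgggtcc
Mif, chr10:75860278-75860527, minus strand: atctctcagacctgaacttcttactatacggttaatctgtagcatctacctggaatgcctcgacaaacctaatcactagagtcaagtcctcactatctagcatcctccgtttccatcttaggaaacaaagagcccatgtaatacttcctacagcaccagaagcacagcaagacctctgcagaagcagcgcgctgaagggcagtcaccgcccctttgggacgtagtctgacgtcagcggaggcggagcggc

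The window of Bnip3 held 5 matches, 2 of them the ACGTG form read from both strands of a single CACGTG, which is also an E-box. Pgk1 held 2 matches, both ACGTG. Slc2a6 and Pfkp held 4 and 3 matches, all of the GCGTG form, and in the window of Mif these letters were not found. Windows were matched for 34 of the 36 genes, all but Slc2a3 and Ndrg1, so also for the untested Gapdh, Gpi1, Eno1, Egln3 and Adm. Of the 34 genes, 31 had either motif in at least 1 window (91.2%, beside 41.5% of all 27025 genes with a window) and 20 had ACGTG (58.8%, beside 18.5%). These 31 are not the 31 tested genes. A gene can have several windows, which raises such a share. Counted by window, 39 of 48 had either motif (81.2%, beside 38.6% of all 32851 windows) and 23 had ACGTG (47.9%, beside 16.6%). Hypoxia targets were put on the list for being targets, and base composition was not accounted for, so these shares only describe the windows. Genes with a match were found among the higher, the lower and the overlapping genes. With a match in 31 of the 34 genes this was bound to occur, so it says nothing about direction.

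Glucose transporters bring glucose across membranes. Slc2a6, a member of this family known as GLUT6, read 8.92, 8.78 and 9.10 on vimentin-deficient replicates 1, 2 and 3 and 8.05, 8.49 and 8.35 on wild-type replicates 1, 2 and 3. All vimentin-deficient arrays lay above all wild-type arrays, and replicate 3 was the highest of the 6. With 6 arrays it was 1.56-fold higher, a log2 fold change of 0.64 with an SE of 0.13 (limma adjusted p = 0.279). The gene rose by 0.55 in the fit without vimentin-deficient replicate 3 (SE 0.12, limma adjusted p = 0.0324). Over the alternatives run, its adjusted p ranged from 0.0324 to 0.983, and its log2 fold change from 0.51 to 0.73. Slc2a6 has a single probe set. It lies on chromosome 2, as Vim does, with 150 protein-coding genes between them in the GRCm38.p6 gene table. Whether its place on the same chromosome as the targeted gene plays a part in this difference was not tested.

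Slc2a1, which encodes GLUT1, the main glucose importer of macrophages, read 9.23, 9.03 and 8.86 in vimentin-deficient and 9.07, 8.71 and 8.76 in wild-type cells. The groups overlapped, with replicate 1 highest in both (log2 fold change 0.19, 95% interval -0.12 to 0.51, limma adjusted p = 0.758). Slc2a3, which encodes the high-affinity transporter GLUT3, read 8.67, 8.30 and 8.26 in vimentin-deficient cells, and 8.35 to 8.37 on the wild-type arrays (log2 fold change 0.05, SE 0.11). A single array, vimentin-deficient replicate 1, was high for it. As a mean over the 3 transporters, replicates 1, 2 and 3 of the vimentin-deficient group lay 0.44, 0.20 and 0.24 above the average of the wild-type group, whose own arrays lay between -0.01 and 0.02. Slc2a6 made up most of this on replicates 2 and 3, where Slc2a3 was below its wild-type mean.

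Hexokinases trap glucose in the cell by phosphorylation. Hk1, the ubiquitous isoform, read 10.35, 10.29 and 10.28 in vimentin-deficient and 10.20, 10.11 and 10.16 in wild-type cells. Its groups did not overlap, with SDs of 0.04 and 0.05 (n = 3 each), but the difference was only 1.11-fold (log2 fold change 0.15, SE 0.07, limma adjusted p = 0.661). A second, dimmer probe set of Hk1 differed by 0.14, but its groups overlapped, at 9.30, 9.28 and 9.18 against 9.03, 9.03 and 9.28. Hk2, the inducible isoform, read 9.02, 8.99 and 8.87 against 9.13, 8.64 and 8.80 and spread more among wild-type than among vimentin-deficient arrays. Hk3, the isoform of myeloid cells, read 11.53, 11.29 and 10.98 against 11.65, 11.48 and 11.45 (log2 fold change -0.27, SE 0.15). Vimentin-deficient replicate 3 was its lowest array, and without that array the value was -0.12. This Hk3 probe set carries the maker's suffix for sets open to cross-hybridisation. A second probe set of Hk3 read 11.18, 11.04 and 10.65 against 11.40, 11.18 and 11.35, a difference of -0.35 with overlapping groups.

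Phosphofructokinase commits sugar to glycolysis, and 3 genes encode its subunits. Pfkp, the platelet-type subunit, read 10.00, 9.79 and 9.58 in vimentin-deficient and 9.57, 9.19 and 9.36 in wild-type cells. Its lowest vimentin-deficient array, replicate 3, lay just above the highest wild-type array. With 6 arrays it was 1.33-fold higher (log2 fold change 0.42, limma adjusted p = 0.536). The value was 0.52 (SE 0.12, limma adjusted p = 0.0441) without vimentin-deficient replicate 3, where it passed. Across the alternatives the adjusted p ran from 0.0441 to 0.997. Its second probe set above the filter read 0.34 higher in vimentin-deficient cells, the same direction, while another, dim probe set read 0.06.

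Pfkl, the liver-type subunit, read 9.63, 9.67 and 8.88 in vimentin-deficient and 9.94, 9.59 and 9.90 in wild-type cells. Replicate 3 was the low array here (log2 fold change -0.42, SE 0.22, limma adjusted p = 0.691), and without it the value was -0.16. A second probe set of Pfkl was also lower, by -0.29, while a dimmer one had the opposite sign at 0.03. Pfkm, the muscle-type subunit, ran from 8.16 to 8.39 over all 6 arrays (log2 fold change 0.01, 95% interval -0.16 to 0.19). Whether the differences of Pfkp and Pfkl differ from each other was not tested.

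Pfkfb3 and Pfkfb4 encode enzymes that set the level of fructose 2,6-bisphosphate, the activator of phosphofructokinase. Pfkfb3 read 7.62, 7.58 and 8.08 in vimentin-deficient and 7.86, 7.67 and 7.81 in wild-type cells. Pfkfb4 read 8.95, 9.04 and 9.37 against 9.17, 9.25 and 9.34. For both, replicates 1 and 2 lay below all wild-type arrays and replicate 3 above them all. Their log2 fold changes were -0.02 (SE 0.14) and -0.13 (SE 0.12) with 6 arrays and -0.18 and -0.26 without that array, with no call in either fit. Pfkfb3 lies near Vim on chromosome 2, with 14 protein-coding genes between them, and its groups overlapped. A dimmer Pfkfb3 probe set read 6.94, 7.06 and 7.10 against 7.07, 7.02 and 7.14, so replicate 3 was not above all wild-type arrays there.

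Below phosphofructokinase, enzymes split the sugar and turn it into pyruvate. Of the 6 tested genes, Aldoc, Tpi1, Pgk1 and Pgam1 had their lowest value on vimentin-deficient replicate 3, and Aldoa and Pkm did not. Aldoc, which encodes aldolase C, read 11.22, 11.12 and 9.26 in vimentin-deficient and 10.76, 11.15 and 11.14 in wild-type cells. Replicate 3 lay 1.92 below the mean of the other 2 vimentin-deficient arrays, the largest such gap in the list, and a second probe set read 1.39 lower there. The log2 fold change was -0.48 (95% interval -1.68 to 0.71, limma adjusted p = 0.847), and 0.15 without that array. Aldoa, the main aldolase gene, ran from 12.38 to 12.57 over the 6 arrays and was highest on replicate 3 (log2 fold change 0.07, SE 0.07). Its 5 probe sets carry the suffix that the maker gives to sets open to cross-hybridisation.

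Tpi1, which encodes triose phosphate isomerase, read 12.38, 12.33 and 11.45 in vimentin-deficient and 12.42, 12.14 and 12.37 in wild-type cells. Its 3 probe sets gave gaps of -0.91, -0.88 and -0.84 between replicate 3 and the mean of the other 2. Pgk1, which encodes phosphoglycerate kinase, read 12.74, 12.73 and 12.08 against 12.80, 12.49 and 12.68, and again replicate 3 alone was low. With 6 arrays the log2 fold changes were -0.26 (SE 0.25) for Tpi1 and -0.14 (SE 0.19) for Pgk1, and without that array 0.05 and 0.08. Gapdh, which encodes glyceraldehyde-3-phosphate dehydrogenase, was read by control probe sets and not tested. The control set at the 3′ end read 13.52, 13.41 and 12.97 in vimentin-deficient cells and 13.42, 13.28 and 13.38 in wild-type cells. Gapdh was thus low on the same array, by 0.50 at the 3′ end, 0.56 in the middle and 0.53 at the 5′ end of the transcript.

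Pgam1, which encodes phosphoglycerate mutase, read 12.80, 12.57 and 12.40 against 12.81, 12.56 and 12.63 (log2 fold change -0.07, SE 0.12). Replicate 3 was lowest, but by less than for Tpi1. Pkm, which encodes pyruvate kinase, the last step, read 12.68, 12.53 and 12.61 in vimentin-deficient and 12.42, 12.23 and 12.42 in wild-type cells. All vimentin-deficient arrays were above all wild-type arrays, replicate 3 included (1.19-fold, log2 fold change 0.25, SE 0.08, limma adjusted p = 0.516). Without that array the value stayed at 0.25 (limma adjusted p = 0.172). Its single probe set does not separate the splice forms of Pkm.

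**Figure D2:**
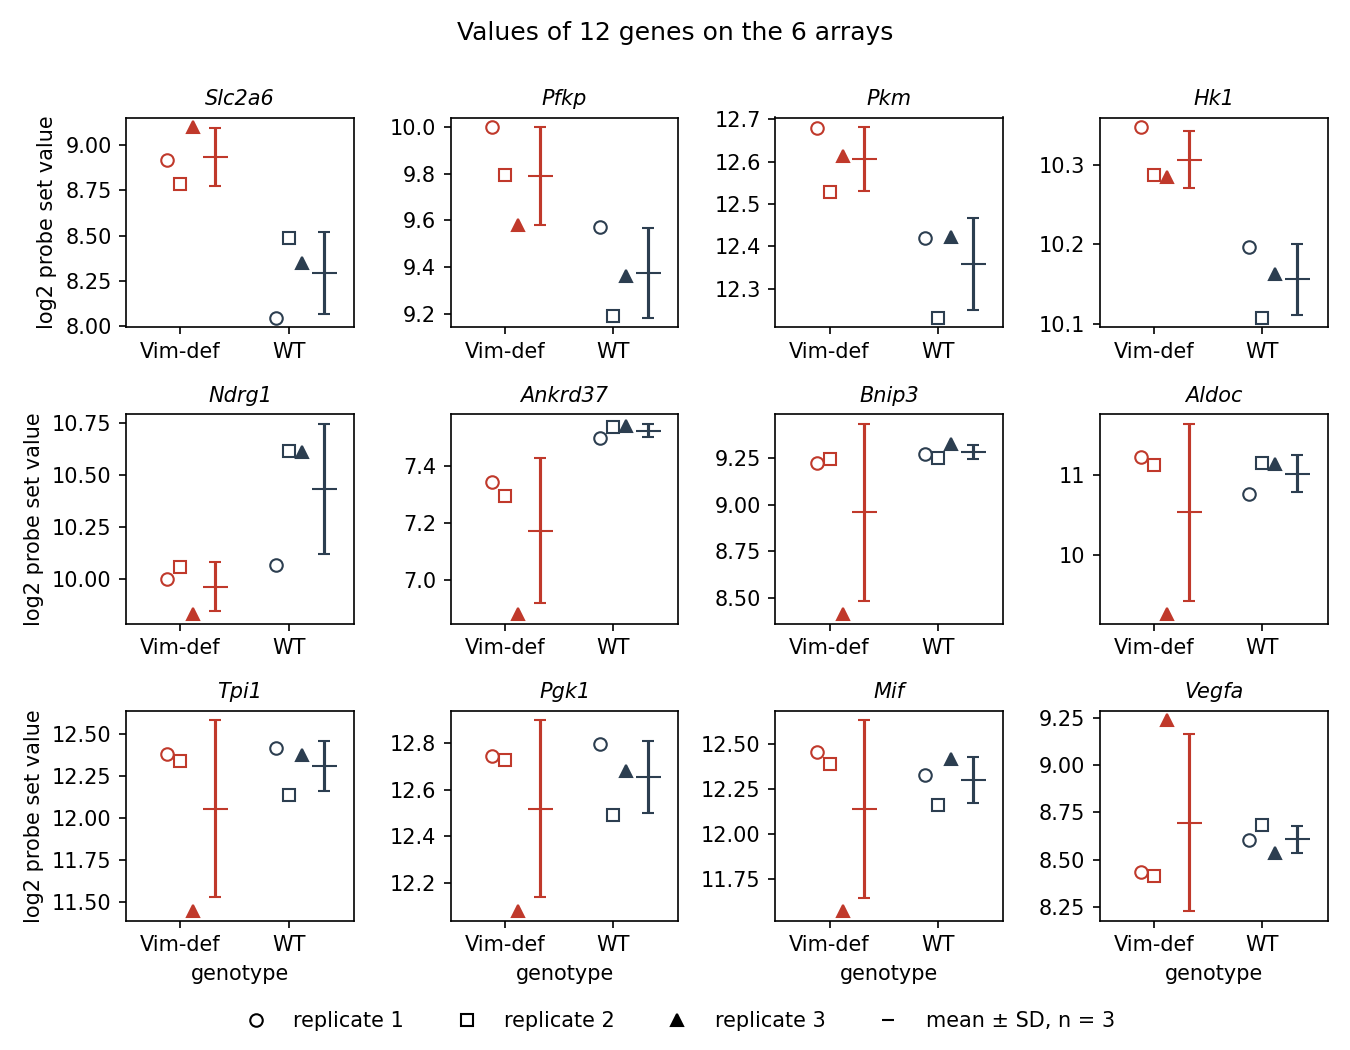
Log2 probe set values (vertical axis, on a separate scale in each panel) of 12 genes on the 3 vimentin-deficient (red) and 3 wild-type (dark) arrays, with the mean ± SD beside each group. Slc2a6, Pfkp, Pkm and Hk1 were higher on every vimentin-deficient array, whereas for Aldoc, Tpi1, Pgk1, Mif and Bnip3 replicate 3 (filled triangle) lay far below the other 5 arrays and for Vegfa above them.

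Pyruvate is either reduced to lactate or oxidised in mitochondria. Ldha, which encodes the lactate-forming dehydrogenase subunit, read 12.64, 12.59 and 12.15 in vimentin-deficient and 12.67, 12.35 and 12.59 in wild-type cells. Slc16a3, which encodes the lactate exporter MCT4, read 8.99, 9.05 and 8.34 against 9.02, 8.68 and 8.89. Pdk1, which encodes a kinase that shuts off pyruvate dehydrogenase, read 10.25, 9.76 and 9.37 against 10.27, 10.09 and 9.92. All 3 genes were lowest on vimentin-deficient replicate 3. Their log2 fold changes were -0.07 (SE 0.15), -0.07 (SE 0.20) and -0.30 (SE 0.22), with limma adjusted p of 0.921, 0.941 and 0.765, and without that array they were 0.08, 0.15 and -0.09. Pdk1 also lies on chromosome 2, with 469 protein-coding genes between it and Vim.

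Hif1a encodes the oxygen-regulated subunit of hypoxia-inducible factor 1. It read 11.04, 10.64 and 10.78 in vimentin-deficient and 10.82, 10.58 and 10.52 in wild-type cells, with overlapping groups (log2 fold change 0.18, 95% interval -0.14 to 0.49, limma adjusted p = 0.771). Egln1, which encodes the main prolyl hydroxylase that marks the subunit for degradation, read 9.52, 9.42 and 9.51 against 9.74, 9.48 and 9.63 (log2 fold change -0.13, SE 0.09). On these probe sets replicate 3 lay between the other arrays for both genes. A dimmer Egln1 probe set read 8.71, 8.86 and 8.49 against 8.82, 8.68 and 8.91, with replicate 3 the lowest of the 6 arrays. Egln3, a hydroxylase gene that is itself induced by the factor, was dim, at 7.04, 6.96 and 6.49 in vimentin-deficient and 6.81 to 6.96 in wild-type cells.

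Among the targets of the factor, Bnip3, which encodes a mitophagy receptor, read 9.22, 9.24 and 8.41 in vimentin-deficient and 9.27, 9.25 and 9.32 in wild-type cells. Its groups were separated by only 0.01 except for replicate 3, which lay 0.82 below the mean of the other 2 (log2 fold change -0.32, SE 0.22, limma adjusted p = 0.754). Without that array the value was -0.05. Ankrd37, an ankyrin-repeat gene, read 7.34, 7.30 and 6.88 against 7.50, 7.54 and 7.54. All vimentin-deficient arrays were lower, with replicate 3 lowest (log2 fold change -0.35, SE 0.12, limma adjusted p = 0.536), and without that array the value was -0.21 (limma adjusted p = 0.0846).

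Ndrg1, a stress and differentiation gene, varied within the wild-type group. It read 10.00, 10.06 and 9.83 in vimentin-deficient cells and 10.07, 10.62 and 10.61 in wild-type cells, so wild-type replicate 1 lay beside the vimentin-deficient arrays (log2 fold change -0.47, limma adjusted p = 0.545, SE 0.16). Its 5 probe sets gave differences from -0.49 to -0.43, but on some of them wild-type replicate 1 lay below the highest vimentin-deficient array, so the groups overlapped. Vegfa, which encodes vascular endothelial growth factor A, read 8.44, 8.42 and 9.24 against 8.61, 8.68 and 8.54. It was the only one of the 31 genes more than 0.5 above the mean of the other 2 vimentin-deficient arrays on replicate 3 (log2 fold change 0.09, SE 0.22, and -0.18 without that array). A second probe set differed by -0.02 with 6 arrays, the opposite sign.

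P4ha1 and P4ha2 encode collagen prolyl hydroxylase subunits. P4ha2 read 8.32, 8.32 and 8.21 in vimentin-deficient and 8.21, 7.77 and 7.96 in wild-type cells, where the lowest of one group met the highest of the other (log2 fold change 0.30, SE 0.11, limma adjusted p = 0.577). P4ha1 read 9.76, 9.72 and 9.74 in vimentin-deficient cells and 10.00, 9.72 and 9.91 in wild-type cells, so wild-type replicate 2 lay among the vimentin-deficient arrays (log2 fold change -0.14, SE 0.09). Ero1a (Ero1l), an oxidase of disulfide bond formation, read 8.99, 8.80 and 8.20 against 8.66, 8.48 and 8.56. Its replicates 1 and 2 were above all wild-type arrays and replicate 3 below them (log2 fold change 0.10, SE 0.20, and 0.33 without that array, limma adjusted p = 0.0809).

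Higd1a, a mitochondrial survival gene, read 10.28, 10.05 and 9.67 against 9.96, 9.65 and 9.91, with the same order of the vimentin-deficient arrays (log2 fold change 0.16, SE 0.17). A dimmer probe set of it differed by -0.01. Mif, which encodes the cytokine macrophage migration inhibitory factor, read 12.45, 12.39 and 11.58 against 12.32, 12.16 and 12.41. Replicate 3 was low by 0.85 beside the mean of the other 2 (log2 fold change -0.16, SE 0.23, and 0.12 without that array). Adm, which encodes adrenomedullin, was dim, between 6.33 and 6.45 on all arrays, below the filter.

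**Figure D3:**
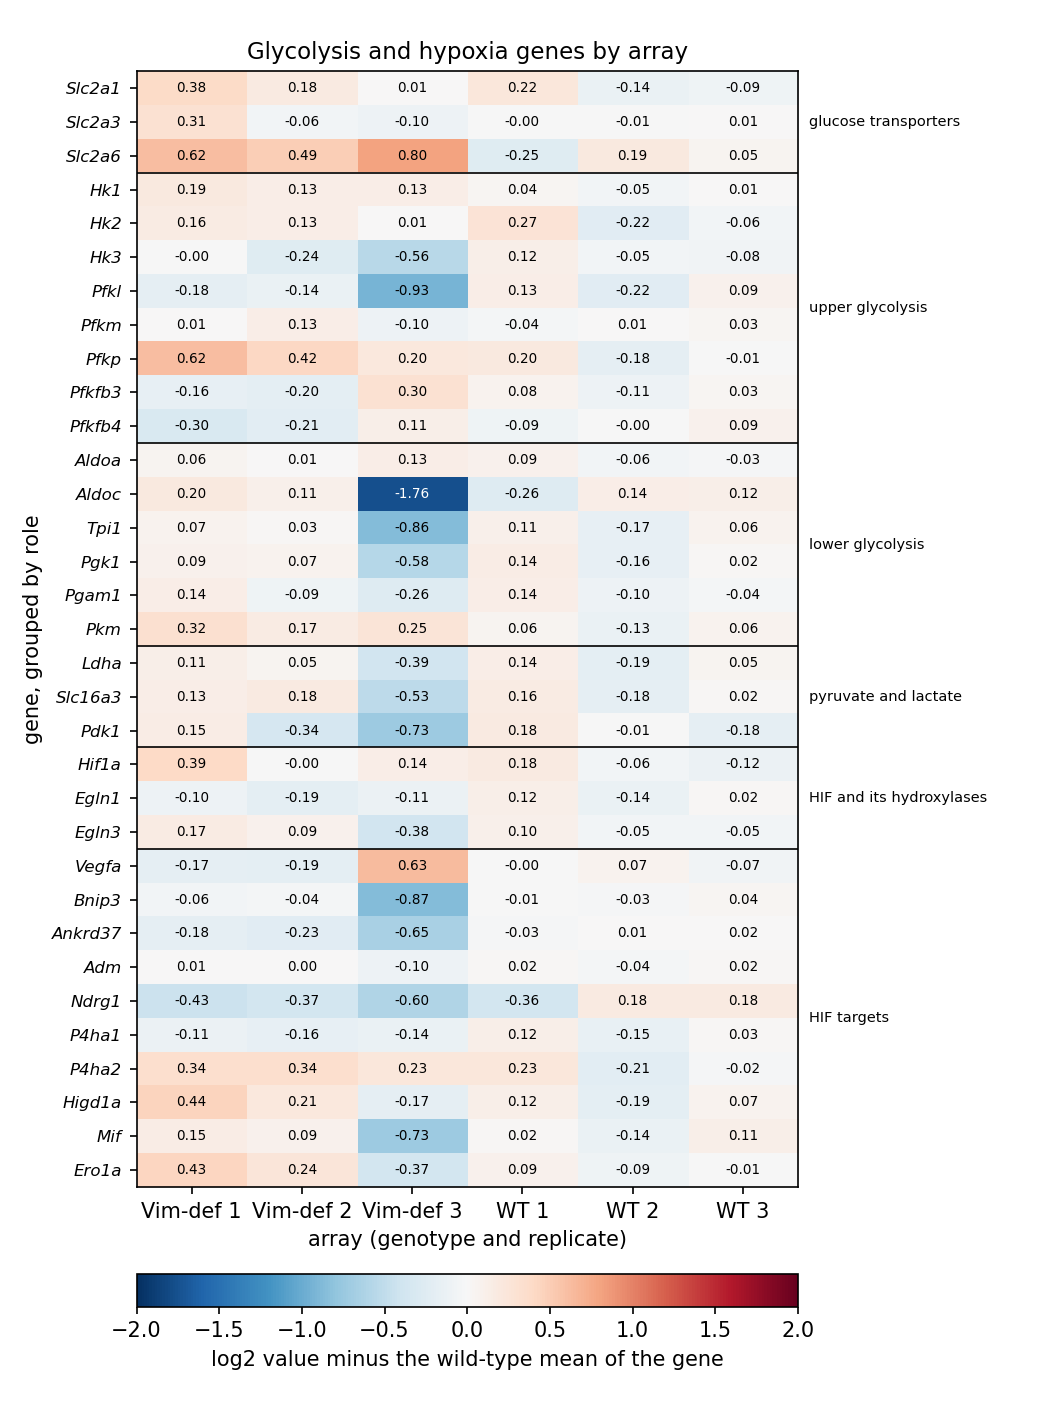
Difference of each log2 value from the wild-type mean of its gene (colour and printed number) for the 33 genes with a probe set (rows, grouped by role) on the 6 arrays (columns). Vimentin-deficient replicate 3 holds most of the strong colours, with Aldoc at -1.76. Slc2a6 and Pfkp are positive on all 3 vimentin-deficient arrays, as are Slc2a1, Hk1, Hk2, Aldoa, Pkm and P4ha2.

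Vimentin-deficient replicate 3 was the lowest of the 6 arrays for 16 of the 31 tested genes, or 51.6%, beside 35.9% of all tested genes, and the highest for 5, or 16.1%, beside 22% of all. It lay more than 0.5 below the mean of the other 2 vimentin-deficient arrays for 10 genes, or 32.3%, beside 5.97% of all tested genes, and more than 0.5 above it for 1, or 3.23%, beside 4.67%. The 10 were Pfkl, Aldoc, Tpi1, Pgk1, Slc16a3, Pdk1, Bnip3, Higd1a, Mif and Ero1a. Not every probe set of these genes showed such a gap. Dimmer sets above the filter gave 0.09 for Higd1a, -0.06 for Mif and -0.05 for Pfkl. Further sets above the filter of Pfkl, Aldoc, Tpi1, Pgk1, Pdk1 and Ero1a gave gaps from -1.39 to -0.38. By role, the 10 genes were 3 of 6 lower glycolysis genes, 2 of 3 pyruvate and lactate genes, 4 of 9 hypoxia-inducible factor targets, 1 of 8 upper glycolysis genes and 0 of 3 transporters. This array was examined after it was seen to stand apart, and these counts carry no test.

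The remaining arrays also ordered the genes in a common way. Wild-type replicate 2 was the lowest wild-type array for 21 of the 31 genes, or 67.7%, beside 36.4% of all tested genes. Vimentin-deficient replicate 1 was above replicate 2 for 24 genes, or 77.4%, beside 51.8% of all. Cell cycle genes followed the same order. Relative to the wild-type mean, the average of 28 of them was 0.46, 0.23 and -1.64 in replicates 1, 2 and 3 without vimentin, and 0.24, -0.28 and 0.04 in the wild-type replicates. For the 6 lower glycolysis genes the same means were 0.15, 0.05 and -0.51, then 0.05, -0.08 and 0.04. The part of cell cycle activity in the glycolysis values was not tested.

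**Figure D4:**
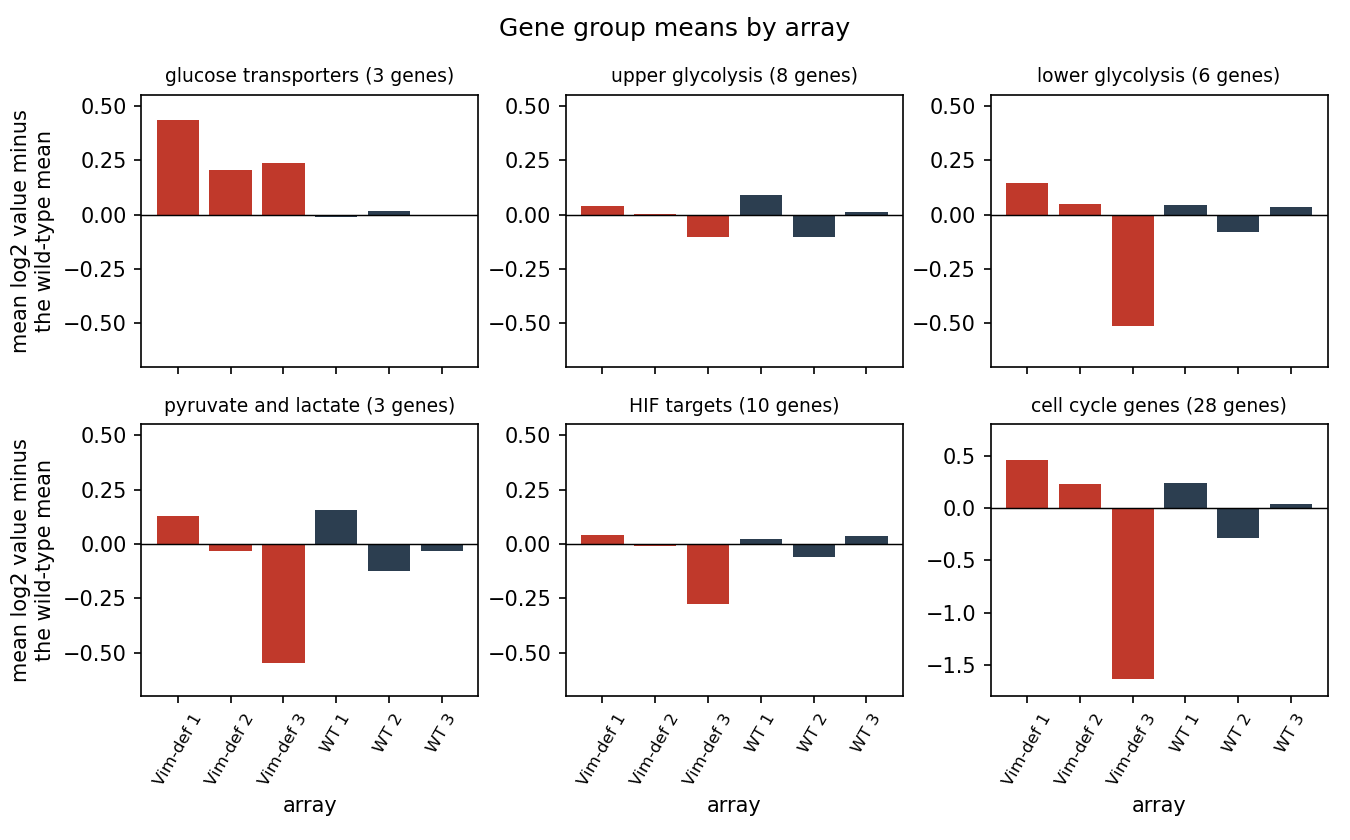
Mean log2 value of each gene group minus its wild-type mean (vertical axis; the cell cycle panel has a wider scale) on the 6 arrays (horizontal axis), red for vimentin-deficient and dark for wild-type. The means of lower glycolysis, pyruvate and lactate, and target genes dip on vimentin-deficient replicate 3, as that of the cell cycle genes does. Single genes can differ from their group, as the target Vegfa was highest on that array. The mean of the 3 transporters, of which Slc2a6 has the largest differences, is 0.20 to 0.44 higher than in wild-type cells on every vimentin-deficient array.

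Neighbouring parts of the pathway gave no call with 6 arrays. Of 21 tested genes of other glycolysis and sugar entry steps, 0 rose and 0 fell (median log2 fold change -0.03). The smallest p values belonged to the urate and sugar transporter gene Slc2a9 (-0.26, SE 0.07, limma adjusted p = 0.398), the monocarboxylate transporter gene Slc16a7 (-0.24, SE 0.08) and the lactate dehydrogenase subunit gene Ldhb (-0.15, SE 0.07). Of 8 pentose phosphate genes, which make NADPH and ribose from glucose 6-phosphate, 0 passed (median -0.02). There Pgd had 0.23 (SE 0.12), Taldo1 0.14 and Pgls -0.09, while G6pdx, also on that list, was not measured. The 28 cell cycle genes had 0 calls (median -0.26, and 0.33 without vimentin-deficient replicate 3), with Birc5 at -0.83 (SE 0.89), Ccnb2 at -0.82 and Cdc20 at 0.17.

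Pyruvate entry into mitochondria held 11 tested genes with 0 calls with 6 arrays (median -0.04) and 1 fall without vimentin-deficient replicate 3. That gene was Mpc1, which encodes a subunit of the mitochondrial pyruvate carrier. It read 11.34, 11.29 and 11.03 in vimentin-deficient and 11.64, 11.78 and 11.76 in wild-type cells, so all 3 vimentin-deficient arrays were lower. Its log2 fold change was -0.50 (SE 0.10, limma adjusted p = 0.269) with 6 arrays and -0.41 (SE 0.08, limma adjusted p = 0.0193) without that array. Pdp1, which encodes the phosphatase that reactivates pyruvate dehydrogenase, had -0.30 (SE 0.08, limma adjusted p = 0.409), and Pdk2 had -0.23. Mpc2, on the same list, was not measured.

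Other subunits and regulators of hypoxia-inducible factor gave 0 calls among 12 tested genes (median -0.03). Hif1an, which encodes the asparaginyl hydroxylase FIH, had -0.21 (SE 0.06, limma adjusted p = 0.428), Cited2, a competitor for its coactivator, 0.19 and Cul2 0.11. Among 25 other targets of the factor, 6 were higher and 19 lower (median -0.08, where all tested genes had -0.02 and 39.6% were higher), with 0 calls with 6 arrays. Tfrc, the transferrin receptor gene, which iron also regulates, read 10.03, 9.88 and 9.62 in vimentin-deficient and 10.83, 10.36 and 10.73 in wild-type cells (-0.80, SE 0.16, limma adjusted p = 0.269). It fell without vimentin-deficient replicate 3 (-0.69, limma adjusted p = 0.0192). Zfp395 had -0.29 (SE 0.08) and Car9, a carbonic anhydrase gene, -0.33 (SE 0.11).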

How the data were processed

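Biotin-labelled cRNA was hybridised to the arrays, per the labels' protocols. The authors deposited log2 probe set values, made by a method not given in the sources used here. They were used as deposited because the array medians nearly coincide. No background signal was removed from the deposited values here, and any that remained in them can shrink the fold of a dim gene. Symbols came from the platform annotation, updated by Entrez ID through the GRCm38.p6 gene table (34754 of 34958 probe sets with 1 symbol matched), and several probe sets were settled by the highest mean. Genes with a mean at or above the 40th percentile of the non-control probe sets, 6.93, were fitted together with limma 3.58.1 in R 4.3.3 (lmFit, eBayes with a mean-variance trend, no covariates). Benjamini-Hochberg adjustment ran over all of them, two-sided, with a threshold of 0.05. SDs are between arrays, and SEs and intervals use the moderated variance. The script was tested on simulated data. The number of arrays, 3 per genotype, limits precision, and RNA per cell and the number of cells of a type cannot be told apart in bulk samples.

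Of the 31 genes, 20 had several probe sets above the filter, and for Higd1a, Pfkl and Vegfa these differed in sign. Named genes were Vim, all listed genes, up to 3 genes with the smallest p (or those called) from each neighbouring list and the 2 brightest markers of each cell type. Cd14 was named after its values were seen, as was the description of vimentin-deficient replicate 3. The list and the neighbouring lists were chosen with earlier results of these data known. Alternatives covered scaling, filter, probe set rule, variance model, array weights, the replicate number as a block, the threshold and each array left out.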

Additional observations from a re-analysis of the deposited data

How the results depend on the processing

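No listed gene was called under any of the 11 settings that kept all 6 arrays. Without 1 array, 0 to 2 were called, 0 to 2 as higher, with both calls in the fit without vimentin-deficient replicate 3, and the median log2 fold change ran from -0.13 to 0.081, among these 6 fits positive only without that array. It also turned positive with all 6 arrays under array quality weights (0.029), against -0.07 as reported. Without 1 array, 0 to 1 genes were called in the lists of pyruvate entry and of other hypoxia-inducible factor targets. Over all tested genes, 0 to 315 were called without 1 array (0 to 176 higher, 0 to 139 lower), 93 with array quality weights (52 higher, 41 lower), and 0 with the replicate block or the unmoderated test. Replicate numbers gave deviation correlations of 0.50, -0.19 and 0.05 and 3 of 6 arrays correlated best with their own number, so they were not taken as pairs. Vim kept -5.89 with the replicate block and the unmoderated test but missed the threshold (limma adjusted p = 0.062, and 0.290 unmoderated), and ran from -6.28 to -5.66 without 1 array, missing it without wild-type replicate 1, 2 or 3 (limma adjusted p = 0.0527, 0.0501 and 0.0766). With array quality weights 6 genes changed sign: Pgk1 (0.023), Pgam1 (0.027), Ldha (0.035), Slc16a3 (0.087), Mif (0.029) and Vegfa (-0.10). Without 1 array 13 changed sign, with ranges of -0.080 to 0.12 for Slc2a3, -0.0080 to 0.24 for Hk2, -0.047 to 0.069 for Pfkm, -0.18 to 0.073 for Pfkfb3, -0.83 to 0.15 for Aldoc, -0.42 to 0.047 for Tpi1, -0.25 to 0.081 for Pgk1, -0.18 to 0.022 for Pgam1, -0.17 to 0.082 for Ldha, -0.20 to 0.15 for Slc16a3, -0.18 to 0.23 for Vegfa, -0.32 to 0.12 for Mif and -0.064 to 0.33 for Ero1a. The other 18 kept their sign in all settings run. The cause of these changes was not tested. With 3 arrays per genotype, differences near the median SE of 0.14 over the 31 genes could not be told from the spread between arrays. Differences well above it did not pass either: Slc2a6, at 0.64 (SE 0.13), had a limma adjusted p of 0.279 with 6 arrays.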
